A study of Mus musculus with 12 samples.

Results

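The genes described here are annexins, S100 proteins, galectins and cytoskeletal genes that are known from injured liver: *Anxa2*, *Anxa5*, *S100a10*, *S100a11*, *Lgals1*, *Lgals3*, *Tmsb10*, *Vim*, *Krt8* and *Krt18*. They were chosen by gene name, with earlier results of these data known, and make up 10 of the 22983 genes measured in the series. All 10 reached an average of 0.5 FPKM, the level set for testing. FPKM, the number of sequenced fragments of a transcript relative to its length and to the size of the library, is a level scaled to transcript length, so that levels of different genes can be set side by side.

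The livers came from 12 male C57BL/6J mice aged 21 weeks, 3 in each of 4 diet groups, after 16 weeks on the diet and a final fast. The ND group ate a normal diet and the HFD group a high-fat diet. The CLE group ate the high-fat diet with an ethanol extract of chrysanthemum leaf at 1.5% (w/w), and the LU group the high-fat diet with 0.003% (w/w) luteolin, a flavone. No allele or transgene was involved, the CLE and LU groups shared the high-fat diet with the HFD group, and the 3 sequenced livers of a group were picked by the study as representative of it. The sample titles call the CLE group CLL, whereas their descriptions call it CLE.

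As background, annexins are proteins that bind membrane phospholipids when calcium is present, and S100A10 and S100A11 are small partners of annexins, S100A10 pairing with annexin A2. Galectins bind sugar chains of glycoproteins, thymosin beta 10 holds actin monomers, vimentin is the intermediate filament of mesenchymal cells and macrophages, and keratins 8 and 18 pair to form the intermediate filaments of hepatocytes. In the liver, annexin A2, vimentin and the galectins are known mainly from non-parenchymal cells and from injured or regenerating tissue.

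The libraries summed to between 533405 and 635097 FPKM over genes, and the number of fragments behind them is unknown. Transcripts with no reference transcript, left out of these sums, held more, between 1483577 and 3660474 FPKM in 11 of the livers and 6084423 FPKM in CLE mouse 4. Log2 levels of pairs of livers correlated across genes at 0.975 to 0.989 within groups and at 0.951 to 0.993 between groups, with the genes as points. The liver label was checked against 10 hepatocyte markers, all of which were measured and which summed to 37670 FPKM or more in every liver. The direction of all-gene changes moved with the library scaling. With the values as deposited, 82.8% of the genes that passed between HFD and ND were higher in HFD, against 55.1% with median-of-ratios scaling and 56.5% with quantile normalization. The median log2 fold change of all genes was 0.11 with the deposited values, -0.01 with median-of-ratios scaling and -0.02 with quantile normalization.

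The high-fat diet livers held more mRNA of 9 of the 10 genes than the normal diet livers. *Lgals1* (6.83-fold by the ratio of mean FPKM), *Anxa2* (5.31-fold) and *S100a11* (3.84-fold) differed most, and *Krt18* did not pass the test. Differences were tested on log2(FPKM + 1) with limma's moderated test, fitted on all 12007 genes averaging 0.5 FPKM or more, with a threshold of 0.05 on the Benjamini-Hochberg adjusted p. Over all genes tested, 9.75% passed as higher in HFD. The 1414 genes that passed in either direction became 669 without ND mouse 2, 847 without ND mouse 4, and 742, 923 and 724 without HFD mouse 12, 15 and 18. The same 9 genes were higher in every HFD liver than in every ND liver, a separation that 28.6% of all genes tested showed in this direction. The median log2 fold change was 1.10 over the 10 genes and 0.11 over all genes. All 10 stayed above 0 with both other library scalings, but the number that passed was then 7 with each. Of all genes tested, 9.20% passed in either direction with median-of-ratios scaling and 8.75% with quantile normalization. With a circadian clock gene score added to the fit, which ran from 0.38 to 1.58 in ND livers and from -1.02 to 0.46 in the others, 5 members passed (*Anxa2*, *Lgals1*, *Tmsb10*, *Vim* and *Krt8*) and 9 had an unadjusted p under 0.05. The log2 fold changes did not shrink with the score, their median over the members being 1.43, while the genes that passed over the whole table fell in number from 1414 to 270, and the score and the diet cannot be told apart where they differ together.

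**Figure D1:**
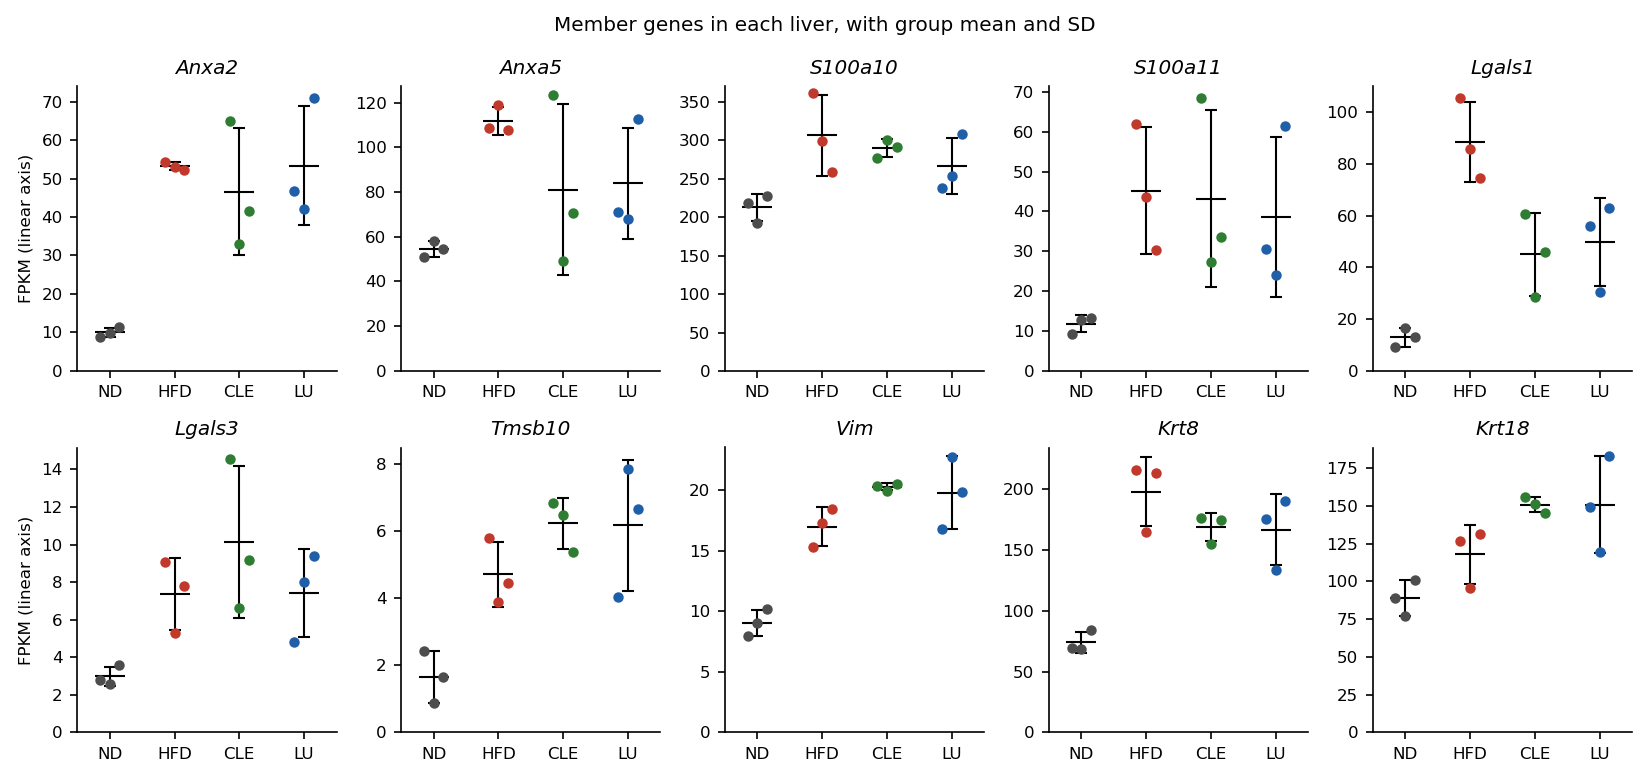
FPKM (linear axis from 0) of the 10 genes in each liver, by diet group; points are livers, the horizontal line is the group mean and the bars are 1 SD (n = 3). For 9 genes the 3 HFD points lie above the 3 ND points, and the CLE and LU points of *Anxa2*, *Anxa5* and *S100a11* are widely spread.

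Among the calcium-dependent membrane proteins, *Anxa2* (ENSMUSG00000032231), whose product bridges membranes and the actin cortex, lies on the plus strand of chromosome 9, 69453620 to 69491795 (GRCm38, GENCODE M21). Its levels were 8.93, 9.75 and 11.3 FPKM in the ND livers and 54.3, 52.9 and 52.3 FPKM in the HFD livers. The HFD livers were close to each other and far above every ND liver, with a log2 fold change of 2.31 ± 0.22 (SE) and an adjusted p of 6.48e-05. This call held under all 26 alternative settings, with adjusted p between 2.57e-06 and 0.00144.

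*Anxa5* (ENSMUSG00000027712; minus strand of chromosome 3, 36448923 to 36475894), whose product binds phosphatidylserine on dying cells, had 51.1, 58.3 and 54.7 FPKM in the ND livers. The HFD livers had 109, 119 and 108 FPKM, all above the ND livers. Its log2 fold change was 1.02 ± 0.27 (SE) with an adjusted p of 0.0264. Without ND mouse 2 the adjusted p of *Anxa5* was 0.0938, and it missed the threshold in 12 of the 26 alternatives, among them the removal of any 1 of the 6 ND or HFD livers (adjusted p of 0.051 to 0.0938).

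The neighbouring genes *S100a11* and *S100a10* lie on the plus strand of chromosome 3, 28792 bases apart with 1 gene, not a coding one, between them. *S100a11* (ENSMUSG00000027907; 93520488 to 93526287) had 9.32, 12.8 and 13.2 FPKM in the ND livers and 61.9, 43.6 and 30.2 FPKM in the HFD livers. The lowest HFD liver was thus well above the highest ND liver, with a log2 fold change of 1.81 ± 0.37 (SE) and an adjusted p of 0.0084. *S100a10* (ENSMUSG00000041959; 93555080 to 93564643), the most abundant of the 10 genes, had 219, 193 and 227 FPKM in the ND livers and 362, 299 and 259 FPKM in the HFD livers. It was higher in every HFD liver, by a smaller step of 0.51 ± 0.14 (SE) on the log2 scale, with an adjusted p of 0.0316. Without HFD mouse 12 its log2 fold change was 0.39 with an adjusted p of 0.122, and it missed the threshold in 10 of 26 alternatives, among them the removal of ND mouse 2, 3 or 4 or of HFD mouse 12 or 15 (adjusted p of 0.0581 to 0.122). The neighbours therefore stood on different scales: the FPKM of *S100a11* was 0.0557 ± 0.0121 of that of *S100a10* in ND livers and 0.145 ± 0.0270 in HFD livers (SD, n = 3).

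The promoters of *Anxa2* and *S100a11* are shown because these were the members of this class with the largest change and the only ones of the 8 genes with a promoter window whose window held the AP-1 letters. The windows are from RefSeq on GRCm38.p6, 250 bases before the RefSeq start. They are printed 5′ to 3′ on the gene's strand up to the base before the M21 gene start, and the capitals mark TGAGTCA, which is TGACTCA read on the other strand.

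*Anxa2* (chr9:69453433-69453619): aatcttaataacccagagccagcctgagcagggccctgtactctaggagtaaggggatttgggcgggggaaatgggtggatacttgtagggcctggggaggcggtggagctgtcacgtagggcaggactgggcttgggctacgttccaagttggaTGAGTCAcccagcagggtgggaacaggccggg
*S100a11* (chr3:93520246-93520487): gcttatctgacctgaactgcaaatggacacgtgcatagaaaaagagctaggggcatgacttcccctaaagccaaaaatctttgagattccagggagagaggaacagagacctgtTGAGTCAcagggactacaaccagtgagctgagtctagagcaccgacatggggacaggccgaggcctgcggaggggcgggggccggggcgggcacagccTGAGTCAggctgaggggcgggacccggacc

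The match in *Anxa2* began 32 bases before the M21 gene start, and those in *S100a11* began 128 and 30 bases before it. TGACTCA on either strand was present in 4.46% of the 32851 windows of the same length over all genes, and at least 2 matches were present in 0.167% of them. RefSeq windows were found for 8 of the 10 genes, and *S100a10* and *Lgals1* had none in the table. GGGCGG, the core of the SP1 motif, was present in windows of 4 of the 8 genes (*Anxa2*, *S100a11*, *Lgals3* and *Tmsb10*), against 32.7% of all windows. In *Lgals3* the only match lay after the M21 gene start. The members are counted by gene and the share by window, and *Tmsb10* had 3 windows. TATAAA was present in the windows of *Anxa2* and *Vim*, in both after the M21 gene start, against 12.4% of all windows. CATTCC, the core of the TEAD motif, was in none of the 8, against 12.6% of all windows. None of these motifs overlapped AP-1 letters, and a match describes the letters only.

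*Lgals1* (ENSMUSG00000068220; plus strand of chromosome 15, 78926725 to 78930465) encodes galectin-1, which activated stellate cells and other mesenchymal cells are known to make. The ND livers had 9.18, 16.5 and 13.2 FPKM and the HFD livers 105, 85.6 and 74.5 FPKM. This was the largest rise of the 10 genes, 2.70 ± 0.30 (SE) on the log2 scale with an adjusted p of 0.000167, and it held under all 26 alternatives. *Lgals3* (ENSMUSG00000050335; plus strand of chromosome 14, 47367751 to 47386160) encodes galectin-3, a macrophage product. It had 2.77, 2.59 and 3.57 FPKM in the ND livers and 9.08, 5.29 and 7.78 FPKM in the HFD livers. The groups did not overlap, and the log2 fold change was 1.06 ± 0.27 (SE) with an adjusted p of 0.0237. Without HFD mouse 12 the adjusted p of *Lgals3* was 0.0969, and the call was lost in 8 of 26 alternatives, among them the removal of ND mouse 2 or 3 or of HFD mouse 12 or 18 (adjusted p of 0.0675 to 0.0969).

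*Tmsb10* (ENSMUSG00000079523; minus strand of chromosome 6, 72957347 to 72958748) was the least abundant of the 10 genes. It had 2.44, 0.869 and 1.65 FPKM in the ND livers and 5.79, 3.90 and 4.44 FPKM in the HFD livers. No ND liver reached the lowest HFD liver, and the log2 fold change was 1.14 ± 0.24 (SE) with an adjusted p of 0.00904. The deposited gene names rest on protein similarity, and 3 of the 8 rows named *Tmsb10* lay on other chromosomes, holding 35.8% of the FPKM under that name. They were left out here, and with them the call was kept.

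*Vim* (ENSMUSG00000026728; plus strand of chromosome 2, 13573927 to 13582826), the vimentin gene, had 7.98, 9.0 and 10.1 FPKM in the ND livers and 15.3, 17.2 and 18.4 FPKM in the HFD livers. The groups did not overlap, with a log2 fold change of 0.84 ± 0.13 (SE) and an adjusted p of 0.00127. Its most abundant transcript made up 36.7% of the gene's FPKM on average and 15.8% to 67.9% in single livers, so that the division among *Vim* transcripts was unsteady. With that transcript alone the log2 fold change was 1.12 with an adjusted p of 0.128.

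The keratin genes *Krt8* (ENSMUSG00000049382; minus strand, 101996698 to 102004482) and *Krt18* (ENSMUSG00000023043; plus strand, 102028180 to 102032027) lie 23697 bases apart on chromosome 15 with no gene between them. *Krt8* had 69.6, 68.8 and 84.1 FPKM in the ND livers and 215, 165 and 213 FPKM in the HFD livers. It rose by 1.40 ± 0.15 (SE) on the log2 scale with an adjusted p of 0.000117, and held under all 26 alternatives. *Krt18* had 89.2, 77.2 and 101 FPKM in the ND livers and 127, 95.3 and 131 FPKM in the HFD livers. Here HFD mouse 15 lay within the ND range, the log2 fold change was 0.39 ± 0.16 (SE), and the adjusted p was 0.145. The partners had thus unequal differences under the high-fat diet.

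The ratio of *Krt8* to *Krt18* FPKM in the same liver does not depend on library scaling, and it was examined after the values were seen. It was 0.780, 0.891 and 0.833 in the ND livers and 1.70, 1.73 and 1.62 in the HFD livers. In the CLE livers it was 1.13, 1.03 and 1.20, and in the LU livers 1.17, 1.12 and 1.04. The group means were 0.835 ± 0.0555 (ND), 1.68 ± 0.0554 (HFD), 1.12 ± 0.0870 (CLE) and 1.11 ± 0.0684 (LU; SD, n = 3). All CLE and LU livers lay between the ND and the HFD livers, while CLE and LU livers overlapped each other. On the log2 scale the ratio was lower by 0.59 in CLE and by 0.60 in LU than in HFD livers. With 3 livers against 3 the two-sided exact permutation test gave p = 0.1 for each of the 5 comparisons other than CLE against LU, the smallest value it can give, and 0.12 after adjustment over the 6 comparisons. For CLE against LU the exact permutation test gave p = 0.8. Mean *Krt18* was 89.1 FPKM in ND, 118 in HFD and 151 in both CLE and LU livers, thus further from ND in CLE and LU than in HFD. Mean *Krt8* was 74.2, 198, 169 and 166 FPKM. The other ratios computed, of *Anxa2* and of *S100a11* to *S100a10*, overlapped between the HFD livers and both the CLE and the LU livers. Their means were 0.176 and 0.145 in HFD, 0.162 and 0.151 in CLE and 0.198 and 0.141 in LU livers, beside 0.0471 and 0.0557 in ND livers.

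**Figure D2:**
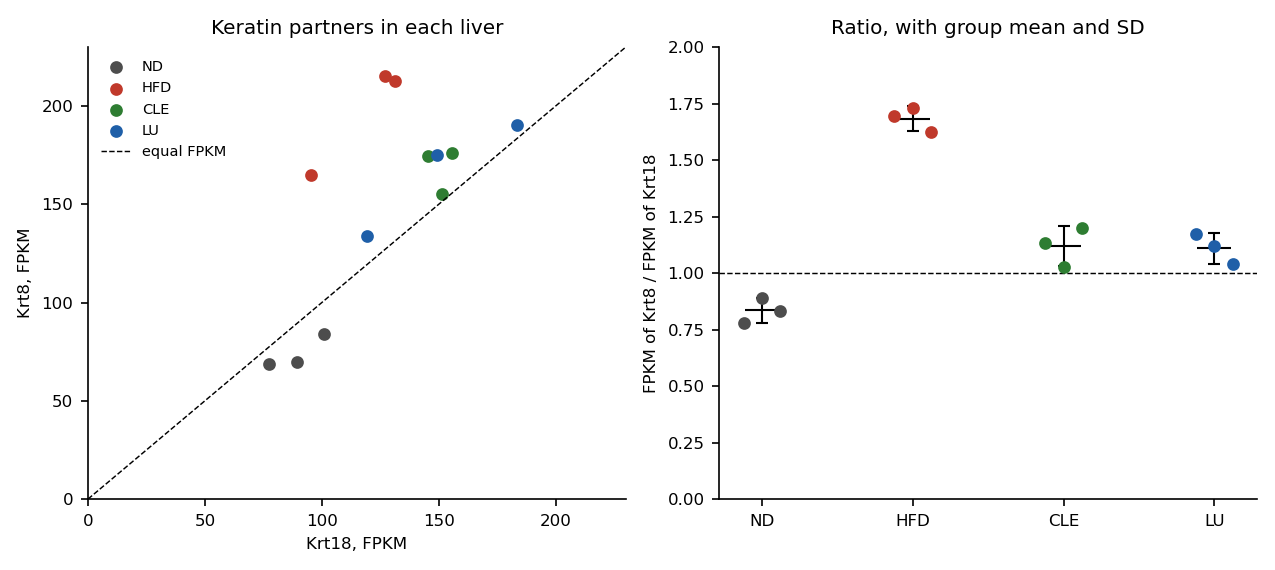
Left, FPKM of *Krt8* against FPKM of *Krt18* in each of the 12 livers, with a dashed line at equal FPKM; right, the ratio of *Krt8* to *Krt18* FPKM by group, with the mean and 1 SD (n = 3). The ND livers lie below a ratio of 1, the HFD livers at 1.62 or more and the CLE and LU livers between 1.03 and 1.20.

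The order of the levels also differed between diets. By the median FPKM of the ND livers *S100a10* (219) was followed by *Krt18* (89.2), *Krt8* (69.6) and *Anxa5* (54.7), and then by *Lgals1* (13.2), *S100a11* (12.8), *Anxa2* (9.75) and *Vim* (9.0), with *Lgals3* (2.77) and *Tmsb10* (1.65) last. In the ND livers the ranges of the neighbours *Krt18* and *Krt8* overlapped, and so did those of *Lgals1*, *S100a11*, *Anxa2* and *Vim*. In HFD livers *Krt8* (median 213) stood above *Krt18* (127), and *Lgals1* (85.6), *Anxa2* (52.9) and *S100a11* (43.6) stood above *Vim* (17.2), all without overlap. Placed among all genes tested, *Anxa2* stood at percentile 58.9 of the levels in ND and 88.0 in HFD livers, and *Lgals1* at percentile 65.6 and 92.2.

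The second question was whether the levels in mice given CLE with the high-fat diet differed from those on the high-fat diet alone. None of the 10 genes passed limma's test (0 of 10, against 5.73% of all genes in either direction). An unadjusted p under 0.05 was found for 2 of the 10, *Lgals1* and *Krt18*. It was found for 3534 of the 12007 genes tested, a larger proportion than among the members. The share over all genes depended on single livers, with 688 genes passing in the fit of all livers, 30 without HFD mouse 15, 59 without CLE mouse 4, 66 without HFD mouse 12, 96 without HFD mouse 18, and 2271 without CLE mouse 2. It was also below 688 by more than 1.5 times without ND mouse 3 (417), ND mouse 4 (305), LU mouse 2 (296) or CLE mouse 11 (386). *Lgals1* had 60.5, 28.5 and 46.1 FPKM in the CLE livers, all below the HFD livers at 74.5 FPKM or more. Its log2 fold change was -1.01 (95% confidence interval -1.66 to -0.36) with an adjusted p of 0.0605. It remained above every ND liver. *Krt18* had 156, 151 and 145 FPKM in the CLE livers, above all HFD livers, with a log2 fold change of 0.37 (0.01 to 0.72) and an adjusted p of 0.16. *Vim* had 20.3, 19.9 and 20.5 FPKM in the CLE livers, again above all HFD livers, with a log2 fold change of 0.25 (-0.02 to 0.52) and an adjusted p of 0.205. Of all genes tested, 16.3% were higher and 14.9% lower in CLE than in HFD livers without overlap.

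The other members overlapped between CLE and HFD livers, and their intervals were wide. *Anxa2* had 64.9, 33.1 and 41.5 FPKM in the CLE livers, with a log2 fold change of -0.24 (-0.73 to 0.24). *Anxa5* had 123, 49.1 and 70.6 FPKM, with a log2 fold change of -0.56 (-1.13 to 0.02). In both genes CLE mouse 2 was above all HFD livers and the other CLE livers were below them. *S100a11* had 68.5, 27.3 and 33.6 FPKM and a log2 fold change of -0.12 (-0.93 to 0.68), with the same mouse highest. *S100a10* had 278, 300 and 292 FPKM, within the HFD range, and a log2 fold change of -0.07 (-0.37 to 0.23). The levels of *Lgals3* were 14.6, 6.61 and 9.19 FPKM, its log2 fold change being 0.37 (-0.21 to 0.95). *Tmsb10* had 6.84, 6.49 and 5.39 FPKM, with a log2 fold change of 0.35 (-0.16 to 0.86). *Krt8* had 176, 155 and 174 FPKM, and its log2 fold change was -0.22 (-0.55 to 0.11). These intervals leave room for differences in either direction.

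The third question was the same for luteolin. None of the 10 genes passed (0 of 10, against 1.01% of all genes in either direction). An unadjusted p under 0.05 was found for 1 of the 10, *Lgals1*. It was found for 2451 of the 12007 genes tested, again a larger proportion than among the members. The 121 genes that passed in all became 22 without LU mouse 3 and 530 without CLE mouse 4, the lowest and the highest number with 1 liver left out. *Lgals1* had 56.0, 30.5 and 63.0 FPKM in the LU livers, all below the HFD livers, as 16.8% of all genes tested were. Its log2 fold change was -0.87 (-1.52 to -0.21) with an adjusted p of 0.152. *Krt18* had 149, 120 and 183 FPKM in the LU livers and a log2 fold change of 0.34 (-0.01 to 0.70), overlapping the HFD livers. *Anxa2* (46.8, 42.2 and 70.9 FPKM) and *Lgals3* (4.82, 8.02 and 9.40 FPKM) had differences near 0, with intervals of -0.51 to 0.45 and -0.59 to 0.57. *Anxa5* had 71.2, 68.2 and 113 FPKM with a log2 fold change of -0.44 (-1.02 to 0.13). *S100a11* had 30.5, 24.0 and 61.5 FPKM with a log2 fold change of -0.28 (-1.08 to 0.53). For these genes LU mouse 8 was the highest LU liver.

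The remaining members of the LU group overlapped the HFD livers. *S100a10* had 238, 254 and 308 FPKM, with a log2 fold change of -0.19 (-0.50 to 0.11). *Krt8* had 175, 134 and 190 FPKM and a log2 fold change of -0.25 (-0.58 to 0.07). *Tmsb10* had 4.02, 7.84 and 6.66 FPKM, and *Vim* 16.7, 22.7 and 19.8 FPKM. Their log2 fold changes were 0.30 (-0.21 to 0.81) and 0.20 (-0.07 to 0.47). For *Vim* the sign in CLE and in LU against HFD turned with the transcripts counted, to -0.28 and -0.40 with the most abundant transcript alone.

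**Figure D3:**
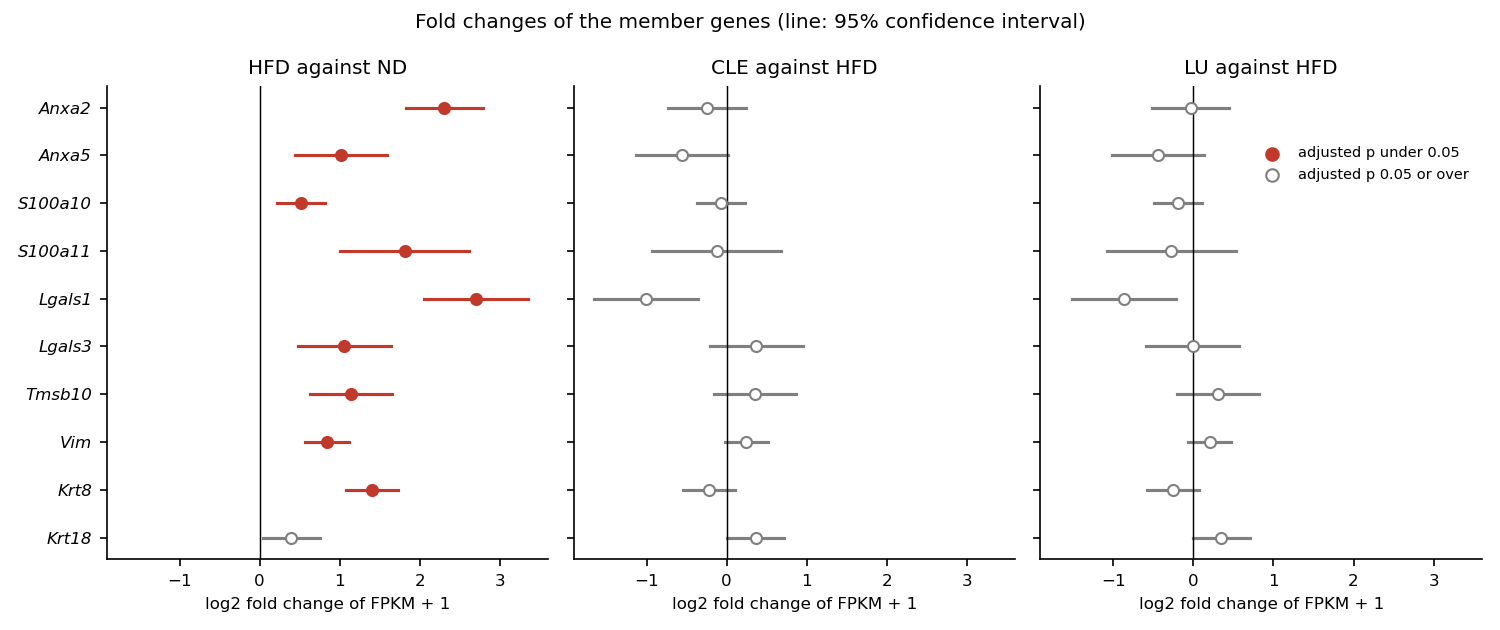
Log2 fold change of FPKM + 1 of the 10 genes (points) with the 95% confidence interval (lines) in 3 comparisons; filled red points passed at an adjusted p under 0.05. In HFD against ND 9 points are filled, and in CLE and LU against HFD none is.

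Between CLE and LU livers no member passed (0 of 10, against 0.00833% of all genes). None had an unadjusted p under 0.05, against 513 of the 12007 genes tested. The groups overlapped for all 10, while 4.66% of all genes were higher and 2.42% lower in CLE without overlap. The widest interval was that of *S100a11*, -0.65 to 0.96 on the log2 scale, and the narrowest that of *Vim*, -0.23 to 0.32. CLE is an extract and LU a single flavone, given at different doses.

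The CLE and LU groups were also compared with the normal diet. These comparisons share the ND livers with the HFD comparison and are not independent of it. Against ND, 9 members passed as higher in CLE (20.6% of all genes) and 8 in LU (10.8% of all genes). The exceptions were *Anxa5* in both, with adjusted p of 0.201 and 0.146, and *S100a10* in LU, with an adjusted p of 0.127. *Krt18*, which had not passed in HFD livers, was higher by 0.76 ± 0.16 (SE) in CLE and by 0.74 ± 0.16 (SE) in LU livers, with adjusted p of 0.00862 and 0.0155. *Anxa2* was higher by 2.06 in CLE and by 2.27 in LU livers, and *Lgals1* by 1.69 and 1.84, all on the log2 scale. Without overlap, 9 members were higher in CLE than in ND livers and 10 in LU than in ND livers, against 31.9% and 29.4% of all genes. Of the genes that passed, 42.3% (CLE) and 40.5% (LU) were higher with median-of-ratios scaling, against 77.1% and 74.6% with the deposited values. With that scaling 8 members passed in each comparison, and with the clock gene score in the fit 1 member passed in each. With that score all 10 members had an unadjusted p under 0.05 in both comparisons, their median log2 fold changes were 1.51 in CLE and 1.39 in LU, and 8 and 13 genes passed over the whole table. Among the 4 groups the moderated F test called 8 members (23.7% of all genes), the exceptions being *Anxa5* (adjusted p of 0.0613) and *S100a10* (adjusted p of 0.053).

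The spread within groups was shared by some members. CLE mouse 2 had the highest CLE value of 8 members and LU mouse 8 the highest LU value of 8 members, as against 40.9% and 48.0% of all genes tested. CLE mouse 4 had the lowest CLE value of 7 members, as against 37.2% of all genes tested. The deviations from the group means of log2(FPKM + 1) over the 12 livers, which share library and scaling between genes, correlated most for *Anxa2* and *Anxa5* (r = 0.955), *Krt8* and *Krt18* (r = 0.916) and *Anxa2* and *S100a11* (r = 0.892). Without CLE mouse 2 and LU mouse 8 these values were 0.869, 0.902 and 0.734. The deviations were still taken from group means that included those livers. The remaining CLE and LU livers thus kept an offset from them, and these values can overstate the correlation that remains. Over the 45 pairs of members r ran from -0.419 (*Lgals1* and *Tmsb10*) to 0.955, with a median of 0.379. *Vim* followed neither the annexins (r = 0.0826 with *Anxa2*) nor the keratins (r = -0.187 with *Krt8*). A further fit left out both CLE mouse 2 and LU mouse 8, a choice made after the values were seen. As each held the highest value of 8 members in its group, leaving them out lowers the group means of those members by construction. The calls of this fit therefore do not show a lower level. In it *Anxa2* (-0.51, adjusted p of 0.0261), *Anxa5* (-0.91, adjusted p of 0.00683) and *Lgals1* (-1.25, adjusted p of 0.0209) passed as lower in CLE than in HFD livers. *Anxa5* (-0.67, adjusted p of 0.0355) then passed as lower in LU livers. Over all genes the calls rose as well, from 688 to 2145 in CLE and from 121 to 404 in LU against HFD. With CLE mouse 2 alone left out, *Anxa5* and *Lgals1* passed (adjusted p of 0.0152 and 0.0223) among 2271 genes in all, and with LU mouse 3 alone left out *Lgals1* passed in CLE against HFD (adjusted p of 0.0484).

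**Figure D4:**
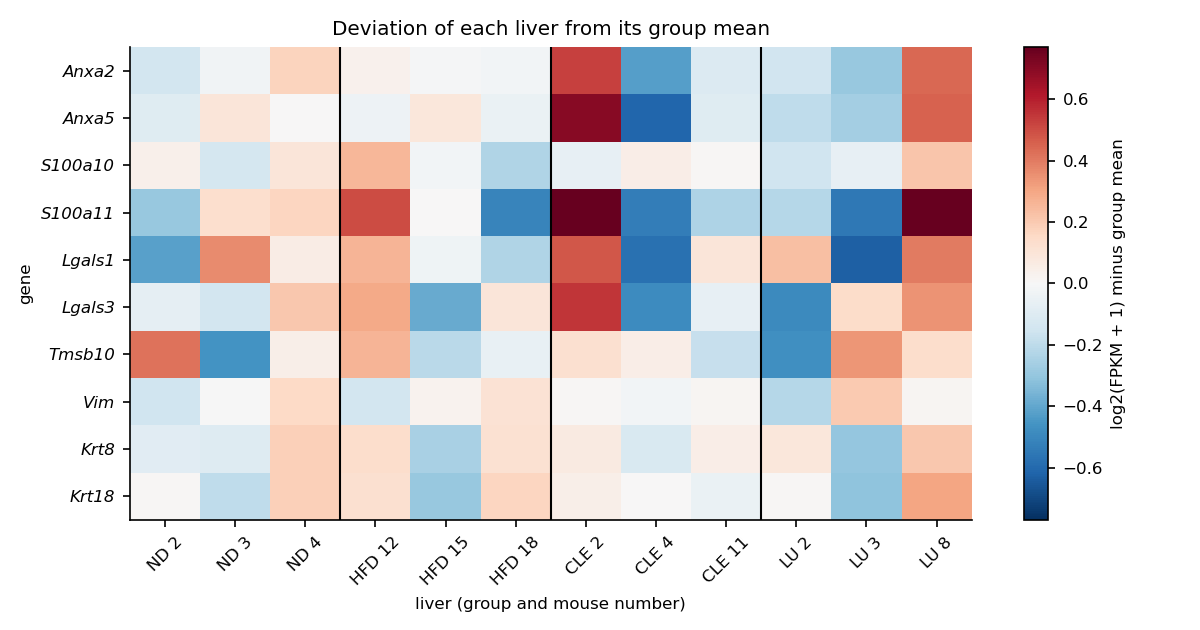
Deviation of each liver from the mean of its group, in log2(FPKM + 1), for the 10 genes (rows) and the 12 livers (columns, with black lines between groups); red is above and blue below the group mean. CLE mouse 2 and LU mouse 8 are red for *Anxa2*, *Anxa5*, *S100a11*, *Lgals1* and *Lgals3*, and the pattern does not extend to *Vim*.

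Some lists of cell type markers, but not all, moved with the members. In whole liver a larger number of cells of a type and more RNA per cell cannot be told apart. The 16 liver macrophage markers summed to 180.5 to 197 FPKM in ND, 249 to 352 in HFD, 260 to 329 in CLE and 203 to 333 in LU livers. Of the 15 tested, 6 passed as higher in HFD than in ND, against 9.75% of all genes, while *Timd4*, *Marco* and *Cd9* overlapped. The 12 stellate cell and fibroblast markers summed to 76.5 to 108 FPKM in ND, 139 to 171 in HFD, 135 to 217 in CLE and 134 to 181 in LU livers. Of the 11 tested, 6 passed as higher in HFD, while *Acta2* and *Ngfr* overlapped. *Dcn* made up most of this sum, with means of 67.0 FPKM in ND and 106 FPKM in HFD livers. Of the stellate markers tested, 10 of 11 were highest in CLE mouse 2 within the CLE group and 9 of 11 in LU mouse 8 within the LU group. For the macrophage markers these numbers were 8 and 4 of 15, for the cholangiocyte markers 4 and 4 of 5, and for the endothelial markers 6 and 1 of 8. They were 3 and 1 of 3 for the neutrophil, 2 and 1 of 4 for the lymphocyte, 1 and 0 of 2 for the adipocyte and 2 and 3 of 10 for the hepatocyte markers. Of all genes tested 40.9% were highest in CLE mouse 2 and 48.0% in LU mouse 8. The part of these lists in the rise of *Lgals1*, *Lgals3*, *Vim*, *Anxa2* and the other members was not tested.

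In HFD against ND, with 9.75% of all genes higher, 1 of 5 tested cholangiocyte markers (*Krt23*) passed as higher and 1 of 8 endothelial markers. So did 0 of 4 lymphocyte markers, 0 of 3 neutrophil markers and 0 of 10 hepatocyte markers, with none lower in any of these lists. The cholangiocyte markers summed to 25.9 to 51.6 FPKM in ND, 54.9 to 72.1 in HFD, 60.2 to 101 in CLE and 58.95 to 121 in LU livers. For the endothelial markers these sums were 71.5 to 86.4, 91.6 to 96.4, 98.3 to 115 and 91.3 to 125 FPKM. Both sums were thus above all ND livers in every other liver, as were the macrophage and stellate sums. The hepatocyte markers summed to 37670 to 43000 FPKM in ND, 45120 to 57970 in HFD, 41190 to 58210 in CLE and 45650 to 50690 in LU livers. The HFD and LU livers thus lay above the ND livers in this sum, and the CLE livers overlapped them. The lymphocyte sums overlapped between ND (6.73 to 8.27 FPKM) and HFD livers (7.87 to 11.7 FPKM). The neutrophil marker *Ly6g* was listed at 0 in every liver. The defining bile duct keratins *Krt7* and *Krt19* had group means of 0.145 to 0.388 and 0.259 to 0.532 FPKM, below 1 FPKM beside *Krt8* at 68.8 FPKM or more. No mesothelial marker reached the level for testing. The neutrophil markers summed to 2.93 to 4.64 FPKM in ND and 5.35 to 8.46 FPKM in HFD livers without overlap, a separation that 28.6% of all genes tested showed. Each of the 3 tested overlapped between HFD and ND livers. The sum was highest in CLE livers (9.86 to 15.3 FPKM), where 3 of 3 passed as higher than in ND, against 20.6% of all genes. The adipocyte markers summed to 5.88 to 6.56 FPKM in ND and 23.5 to 37.7 FPKM in HFD livers, a rise held almost wholly by *Cidea*. Of the 2 tested, *Cidea* was higher in HFD livers (means of 0.467 FPKM in ND and 26.2 FPKM in HFD) and *Lipe* was not (5.67 and 6.25 FPKM). *Adipoq*, which defines fat cells, and *Plin1* had means of 0.027 FPKM or less in ND and HFD livers. *Adipoq* had 0.5 to 0.758 FPKM in LU livers and 0.145 FPKM or less in all others. *Plin1* had 0.137 to 0.327 FPKM in LU livers and 0.0274 FPKM or less in all others. *Lep* had 0.1385 to 0.187 FPKM in LU livers and 0 in all others. *Retn* and *Cidea* overlapped between LU and HFD livers. *Adipoq*, *Plin1* and *Lep* were below the level for testing, and their part in the LU values was not tested.

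**Figure D5:**
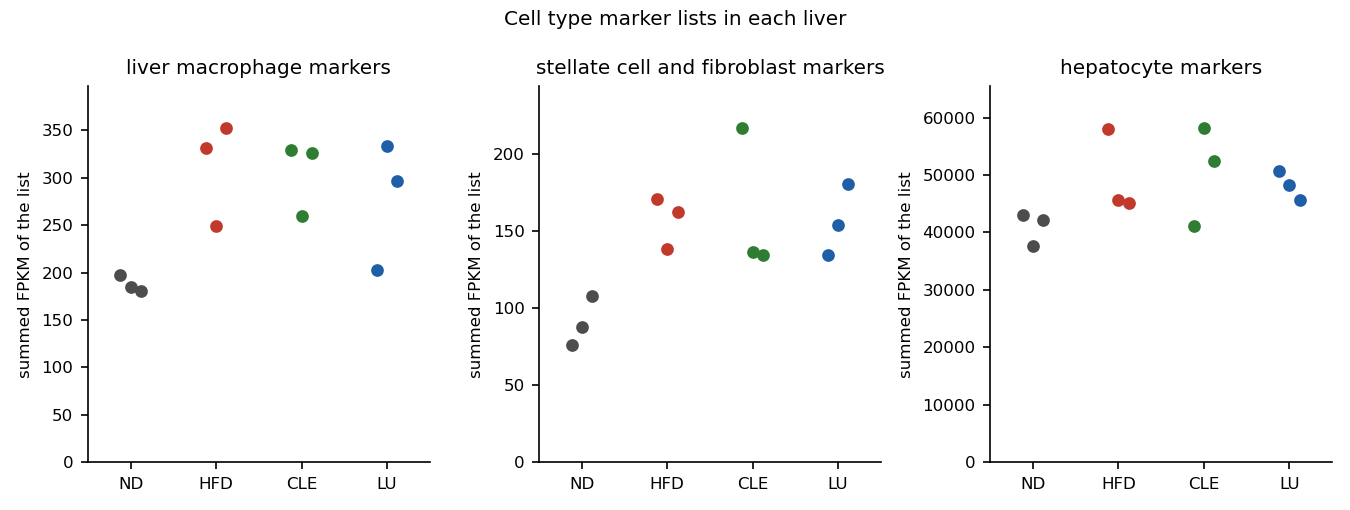
Summed FPKM (linear axis from 0) of the liver macrophage, stellate cell and fibroblast, and hepatocyte marker lists in each liver, by group. The macrophage and stellate sums of all HFD, CLE and LU livers lie above the ND livers, from 203 and 134 FPKM upwards. The hepatocyte sums of all HFD and LU livers also lie above the ND livers, and those of the CLE livers overlap them.

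Related genes that were not members were counted from fixed lists, likewise chosen with earlier results of these data known. In HFD against ND, with 9.75% of all genes higher, the passing genes of each list were all higher: 5 of 8 other annexins, 2 of 8 other S100 genes, 1 of 5 other galectins and galectin-3 binding protein, 15 of 27 thymosins, actins and actin-binding genes, 4 of 9 other intermediate filament and plakin genes and 7 of 10 tubulins. The median log2 fold changes of these lists were 0.46, 0.61, -0.09, 0.54, 0.38 and 0.74, beside 0.11 for all genes. The annexins were led by *Anxa1* (0.77, adjusted p of 0.0133), *Anxa3* (0.76, adjusted p of 0.0431) and *Anxa4* (0.57, adjusted p of 0.0202), and the S100 genes were *S100a6* (1.10, adjusted p of 0.00197) and *S100g* (1.03, adjusted p of 0.0187). *Lgals3bp*, which encodes a secreted ligand of galectin-3, was higher by 0.35 (adjusted p of 0.0302). Among the actin genes *Tpm2*, a tropomyosin (2.06, adjusted p of 3.06e-05), *Capg*, which caps actin filaments (1.16, adjusted p of 0.0159), and *Tagln2* (0.98, adjusted p of 0.00135) led, and among the intermediate filament genes *Krt23* (1.99, adjusted p of 0.00188), *Ppl* (1.47, adjusted p of 0.00261) and *Lmna* (0.51, adjusted p of 0.0361). The leading tubulins were *Tubb6* (1.11, adjusted p of 0.000989), *Tuba1c* (0.82, adjusted p of 0.0359) and *Tubb4b* (0.76, adjusted p of 0.0149).

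Against HFD, 3 of the 67 tested genes of these lists (4.48%, against 5.73% of all genes) passed in CLE livers, named here after their values were seen. *Lgals4* (1.20, adjusted p of 0.0429) and the desmin gene *Des* (0.44, adjusted p of 0.0497) were higher, and *Rdx*, which encodes radixin, was lower (-0.73, adjusted p of 0.02). In LU against HFD and in CLE against LU no gene of the lists passed.

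Outside the 10 members, the gene most like each in its pattern over the 12 livers was taken by Pearson's r of log2(FPKM + 1) among 7389 genes averaging 5 FPKM or more, as a description. These were *Ifi27l2b* for *Lgals1* (r = 0.978), *Themis* for *Anxa2* (r = 0.977), *Clic1* for both *Tmsb10* (r = 0.970) and *Vim* (r = 0.959), *Capns1* for *Krt8* (r = 0.968), *Ly6d* for *S100a11* (r = 0.963), *Cd68* for *Lgals3* (r = 0.962), *Maea* for *Anxa5* (r = 0.944), *Idh3g* for *Krt18* (r = 0.935) and *2700097O09Rik* for *S100a10* (r = 0.933). *Themis* had 0.691 ± 0.256 FPKM in ND and 11.6 ± 1.44 FPKM in HFD livers, and *Cd68*, a macrophage marker, 3.30 ± 0.276 and 8.94 ± 1.17 FPKM (SD, n = 3).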

How the data were processed

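Total RNA of 12 livers was sequenced as paired reads. The submitters' processing notes name CASAVA 1.8.2, Bowtie2 2.2.3, TopHat2 2.0.12 and Cufflinks 2.2.1. The authors deposited FPKM values of 152210 transcripts, without counts, so that the depth is unknown; whether their DEGES/edgeR factors are included is not stated. FPKM was summed per gene over the rows on a GENCODE M21 gene and its strand (39 of the 43 rows with a member's name). M21 names processed pseudogenes of *Krt8*, *S100a11* and *Lgals1*, which had no value of their own, and fragments shared with them cannot be told apart. Genes averaging 0.5 FPKM or more were compared with limma 3.58.1 in R 4.3.3 on log2(FPKM + 1), with the variance trend, all 12 livers and Benjamini-Hochberg adjustment (12.7 degrees of freedom). Fold changes on this scale understate those of low genes. The pseudocount of 1, the filter, library scaling, transcripts counted, GC content and length, a clock gene score and single livers were varied; sums by the deposited name and leaving out CLE mouse 2 with LU mouse 8 were added after seeing the data. The members, lists and tests were chosen with earlier results of these data known. Named are all members, the gene most like each, and up to 3 genes per related list by their change in HFD against ND. The mouse numbers in the labels belong to different mice.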

Additional observations from a re-analysis of the deposited data

Results flagged for a closer look

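Of the 7 rows named *Lgals3* 1 lay on the strand opposite to the gene and was not summed. It held 0.312 FPKM or more in the HFD livers and at most 0.169 FPKM in the ND livers, which placed it above the control level in rows outside the comparisons. Its average was 0.263 FPKM, below the 0.5 FPKM set for testing, and 28.6% of all genes tested were higher in HFD livers without overlap. The row held 0.146 to 0.631 FPKM in the CLE and 0.131 to 0.345 FPKM in the LU livers, both overlapping the ND livers. The groups of 3 livers are too small for the check of single outlying livers.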

How the results depend on the processing

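For HFD against ND 9 members passed, and 6 to 9 with 1 liver left out; 5 passed with the most abundant transcript alone or with a clock gene score as a covariate, 6 without the filter on low values, and 8 of 9 tested at a mean of at least 5 FPKM. With the clock score 1 member passed in CLE against ND, 1 in LU against ND and 3 in the F test, while the median log2 fold changes of the members rose to 1.51 and 1.39 against ND and the calls over all genes fell to 8, 13 and 215. Leaving out 1 liver gave 8 to 9 (CLE against ND), 6 to 9 (LU against ND), 0 to 2 (CLE against HFD) and, in the F test, 5 (without ND mouse 2) to 10. With CLE mouse 2 and LU mouse 8 both left out, 3 members passed in CLE and 1 in LU against HFD, among 2145 and 404 of all genes (688 and 121 with all livers). Those livers held the highest values of most members in their groups, so that leaving them out lowers the group means by construction. Against HFD the sign turned with the clock score for *S100a10* (0.020) and *S100a11* (0.10) in CLE and *Anxa2* (0.13) and *Lgals3* (0.16) in LU. It turned with the most abundant transcript for *Vim* (-0.28 in CLE, -0.40 in LU) and *Lgals3* (0.058 in LU), with known transcripts alone for *Vim* (-0.17 in CLE, -0.27 in LU), and for *Lgals3* in LU with median-of-ratios scaling (0.015) and quantile normalization (0.027). With 1 liver left out the ranges were -0.183 to 0.060 (*S100a10*, CLE), -0.505 to 0.144 (*S100a11*, CLE), -0.254 to 0.114 (*Anxa2*, LU) and -0.203 to 0.235 (*Lgals3*, LU). None of these reversed values passed, and their cause was not tested. The replicate numbers pair no animals: deviations of same-numbered livers correlated at -0.25 to 0.19, and with the number as a block 7 members passed in CLE against ND and 6 in LU against ND. HFD mice share no number with other groups, so no paired analysis was possible because fewer than 2 numbers were shared. The other alternatives kept every count of members within 1.5 times. Counts over all genes moved more, to between 30 and 2271 in CLE against HFD and between 22 and 530 in LU against HFD. The depth of the libraries is unknown.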
